A study of Homo sapiens with 7 samples.

Results

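The network formed by CTCF chromatin loops was compared between wild-type HEC-1-B cells and HEC-1-B cells of the ZNF143KO genotype, a knockout of the ZNF143 gene. The members were all loops in the 2 deposited CTCF lists, 19313 in wild type and 15597 in ZNF143KO, or 34910 of the 135475 loops in the 7 lists of the series. HEC-1-B is an established human uterine adenocarcinoma cell line. Both lists came from HiChIP with the same CTCF antibody from Abcam (Ab70303), and neither group received auxin. In HiChIP, DNA contacts are fixed and ligated inside nuclei, the ligated chromatin is pulled down with an antibody, and the 2 ends of each fragment are sequenced to show which loci met. Each group was 1 library, so no test between replicates exists and no p-value is given. The labels do not say how many clones the ZNF143KO cells represent, and removal of the ZNF143 protein was not checked from these lists. The other libraries of the series served as second readouts: RAD21 HiChIP in wild-type and ZNF143KO cells, and ZNF143 HiChIP in wild-type cells.

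CTCF is a zinc-finger protein that binds DNA and halts cohesin, the ring complex that extrudes chromatin loops, and RAD21 is a cohesin subunit. A pair of CTCF sites that face each other is the usual pattern at the ends of a loop, and a site can share its contacts among several partners in different cells. Loops can therefore nest, with a short loop inside a longer one, or chain, with 1 loop starting where the previous one ends. ZNF143 is also a zinc-finger protein. It binds at many promoters, and it has been studied beside CTCF at loop ends.

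Anchors of both lists that lay within 5 kb of each other were merged into sites, which gave 20476 sites with a median width of 1.94 kb. Of these, 17554 came from 1 anchor and 9 were wider than 20 kb. In the 2 lists, 8896 anchors had identical coordinates, which was 52.5% of the wild-type and 55.9% of the ZNF143KO anchors. Counted between sites, there were 17718 loops in wild type and 14382 in ZNF143KO. The summed loop counts of the whole lists, with loops within a site included, were 80726 and 46220. A loop with a count under 2 was not listed, so a loop or site missing from a list was not shown to be absent. The wild-type list was deposited with 8 columns and the ZNF143KO list with 7, so the deletion cannot be told apart from any difference in how the lists were made. To set the lists side by side at an equal listed total, wild-type counts were also thinned at random to 46220, which left 11272 loops, fewer than the 14382 of ZNF143KO. Intervals in brackets are 95% intervals and cover counting error only; loops that share a site are not independent of each other.

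No GRCh37 sequence or annotation was used, so the genes at each position are named from general knowledge of the GRCh37 (hg19) map and not by computation. The named genes were checked for neighbourhood in the RefSeq table of another build: in 19 of 19 loci they lay on 1 chromosome in the order used here. Promoter sequences were looked up in the same RefSeq set (GRCh38.p14), which held 71 of the 95 genes checked. Each promoter window of 300 bases was searched on both strands for the letters ACTACAATT, part of the sequence ZNF143 is known to bind, and for the CTCF core motif. ACTACAATT stood in 0.37% and the CTCF core motif in 0.527% of all 27305 promoters. Among these genes RPS26 alone held the first and CEBPB alone the second, and both are shown because the sites that hold these genes appear below. The stretches are from the plus strand, 5′ to 3′, with the matched letters in capitals.
RPS26, GRCh38.p14, chromosome 12, match 173 to 165 bases before the start: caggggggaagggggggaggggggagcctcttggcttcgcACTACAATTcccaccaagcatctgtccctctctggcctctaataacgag
CEBPB, GRCh38.p14, chromosome 20, match 137 to 126 bases before the start: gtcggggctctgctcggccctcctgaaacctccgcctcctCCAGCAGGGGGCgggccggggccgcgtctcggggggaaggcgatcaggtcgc
A match describes these letters only, and binding at either promoter was not measured by these lists.

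Sites had fewer partners in the ZNF143KO list. The mean number of partner sites was 2.27 over 15628 looped sites in wild type and 1.97 over 14624 looped sites in ZNF143KO, and the highest number was 22 and 23. Sites with 1 partner made up 50.3% [49.5 to 51.1] in wild type and 57.7% [56.9 to 58.5] in ZNF143KO, and sites with at least 5 partners 10.9% [10.4 to 11.4] and 7.61% [7.19 to 8.05]. In the thinned wild-type list the mean was 1.93, the share with 1 partner 57.7% and the share with at least 5 partners 6.95%. The ratio of means, ZNF143KO over wild type, was 0.867 [0.851 to 0.885] as deposited and 1.02 [0.999 to 1.04] at an equal listed total, where the interval included 1. By chromosome the ratio of means ran from 0.753 on chromosome 9, 0.756 on chromosome 21 and 0.766 on chromosome 4 to 0.953 on chromosome 12, and it was under 1 on every chromosome in the lists as deposited. The ratio of loop numbers was also lowest on chromosomes 4, 9 and 21, at 0.486, 0.569 and 0.603, and it was 0.933 on chromosome 12.

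**Figure D1:**
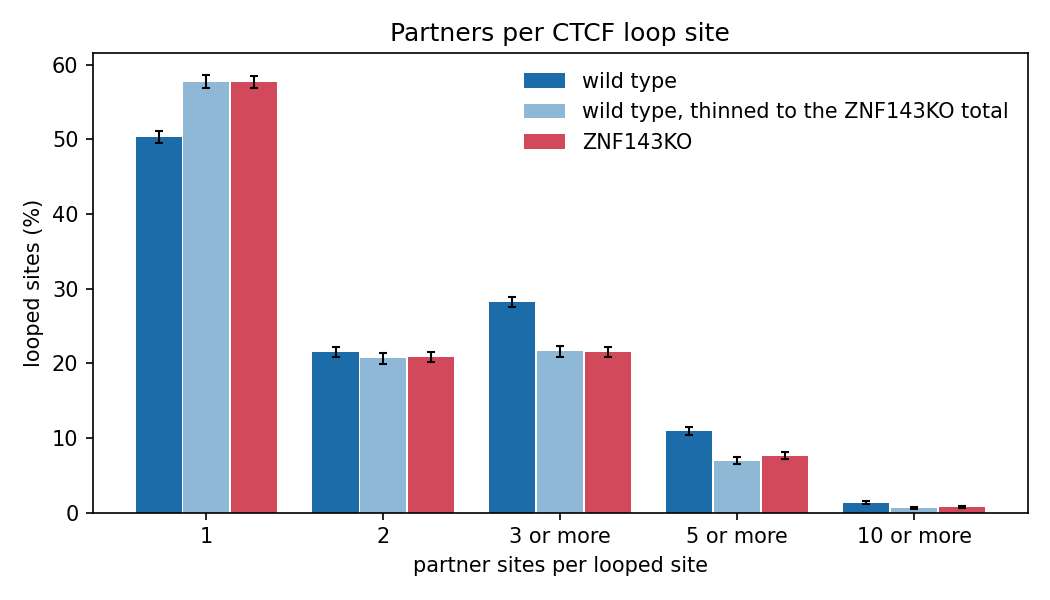
Share of looped sites (%) by number of partner sites in wild type (dark blue), in wild type thinned to the ZNF143KO total (light blue) and in ZNF143KO (red), with 95% Wilson intervals; the classes 3 or more, 5 or more and 10 or more overlap. The share with 1 partner is 50.3% in wild type, 57.7% in the thinned list and 57.7% in ZNF143KO.

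The measures of nesting and chaining also depended on the totals. Loops lying inside a longer loop were 74.8% [74.1 to 75.4] of the wild-type list and 68.0% [67.3 to 68.8] of the ZNF143KO list, and 66.4% of the thinned wild-type list. Loops in chains, which met another loop end to end at a site, were 80.8%, 75.3% and 71.3%. Loops in connected networks of at least 10 loops were 73.0%, 60.3% and 53.2%, and sites with loops on both sides were 31.0%, 26.8% and 24.8%. For these 4 measures ZNF143KO was below wild type as deposited and above it at an equal listed total. Loops that crossed another loop, with ends inside and outside it, were 50.2%, 46.3% and 38.1%. Loops alone, with no other loop at either site, were 4.58% of the wild-type list and 9.50% [9.04 to 10.0] of the ZNF143KO list, against 8.81% [8.30 to 9.35] after thinning.

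A measure of loop triangles kept its direction at equal totals. Where 2 loops met end to end at a site, a longer loop joined their outer ends for 4528 of 23297 pairs in wild type, or 19.4% [18.9 to 20.0], and for 2406 of 16183 pairs in ZNF143KO, or 14.9% [14.3 to 15.4]. The thinned wild-type list gave 1889 of 10547 pairs, or 17.9% [17.2 to 18.7]. The share was lower at longer distances in the wild-type and ZNF143KO lists as deposited, and ZNF143KO was the lowest in each distance class. For outer ends under 200 kb apart it was 31.7% in wild type, 28.9% [27.3 to 30.5] after thinning and 24.5% [23.4 to 25.7] in ZNF143KO. From 200 to 500 kb it was 19.0%, 16.0% [15.0 to 17.1] and 12.9% [12.2 to 13.7]. Between 500 kb and 1 Mb the values were 12.5%, 10.4% [9.23 to 11.8] and 5.54% [4.78 to 6.41], and between 1 and 2 Mb 6.25%, 7.27% and 2.52%, the last from 16 of 634 pairs. The difference, ZNF143KO minus wild type, was -4.57 points [-5.31 to -3.82] as deposited and -3.06 points [-3.97 to -2.15] at an equal listed total. Thinning equalled the totals alone. Loops with a count of 2 still made up 51.8% of the thinned wild-type list and 61.0% of the ZNF143KO list. The part of this in the triangle difference was not tested.

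**Figure D2:**
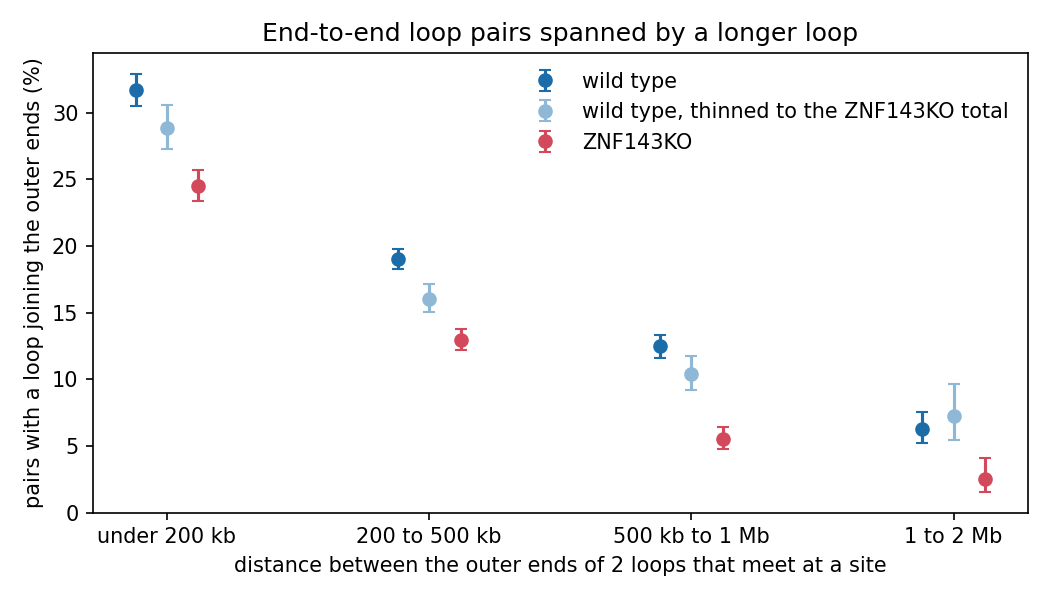
Share of loop pairs meeting end to end that had a loop joining their outer ends (%), by the distance between those outer ends, in wild type (dark blue), thinned wild type (light blue) and ZNF143KO (red); bars are 95% Wilson intervals. In each distance class the ZNF143KO point is the lowest, as at 500 kb to 1 Mb with 5.54% beside 12.5% and 10.4%.

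Within the 4528 wild-type triangles, the long outer loop was listed less often in ZNF143KO than the short inner loops. With the outer loop listed in ZNF143KO, both inner loops were kept in 875 triangles (19.3%), 1 in 768 (17.0%) and none in 330 (7.29%). With the outer loop lost, both inner loops were kept in 725 (16.0%), 1 in 1241 (27.4%) and none in 589 (13.0%). Loops that were only outer loops were kept in 33.0% of 1930 cases [30.9 to 35.1], with a mean wild-type count of 4.17 and a median span of 279 kb. Loops that were only inner loops were kept in 50.0% of 4558 cases [48.6 to 51.5], with a mean count of 5.91 and a median span of 92.2 kb. The 1484 loops that were outer in 1 triangle and inner in another were kept in 54.6% [52.0 to 57.1], with a mean count of 8.86 and a median span of 192 kb. Loops that were only outer had the lowest kept share within each class of wild-type count. At a count of 2 the kept shares of only outer and only inner loops were 18.9% [16.5 to 21.6] and 28.3% [26.2 to 30.5], at 3 to 4 31.3% and 47.2%, at 5 to 9 53.1% and 64.3%, and at 10 or more 83.8% [76.9 to 89.0] and 90.7% [88.1 to 92.7]. For loops in both places they were 28.6%, 45.3%, 62.8% and 89.0% in the same classes. Span differs between the places by construction and was not separated from them.

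The same held for partners on 1 side of a site. Where a wild-type site had at least 2 partners on a side, the nearest one was kept in 47.3% of 7665 cases [46.2 to 48.4] and the farthest in 27.4% [26.4 to 28.4], with mean counts of 5.47 and 3.75. In the 1717 cases in which both loops had a count of 2, the shares were 28.7% [26.6 to 30.8] and 14.9% [13.3 to 16.6].

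Loops in both lists are called kept, those in the wild-type list alone lost and those in the ZNF143KO list alone gained, with no test behind these words. Of the wild-type loops, 6398 (36.1%) were kept, which was 44.5% of the ZNF143KO loops. By position in the nest, the share kept was 18.2% [16.8 to 19.6] for outermost loops that held others, 41.6% for loops that were nested and held others, 42.0% for innermost loops and 21.8% for loops that neither held nor lay in another. Their median spans were 371, 192, 65.7 and 125 kb, and their mean counts 2.93, 5.43, 4.65 and 2.94. Chained loops were kept in 38.6% and other loops in 25.5%, a difference of 13.1 points [11.4 to 14.8]. Chained loops also had the higher mean count, 4.85 beside 3.33. Within 12 classes of count and span the difference was 6.50 points [4.87 to 8.14], positive in 10 of the 12. The 2 classes with the opposite sign were loops over 300 kb with counts of 5 to 9 and of 10 or more, and the intervals of both included 0.

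Of the 11320 wild-type loops not listed in ZNF143KO, 4729 (41.8%) had both sites still looped to other partners, 5149 (45.5%) had 1 such site and 1442 (12.7%) had none. Of the 4729, 3354 (70.9%) still had both sites in 1 connected network, and 2386 (50.5%) were joined through 1 intermediate site. Among the 7984 loops listed in ZNF143KO alone, 3028 (37.9%) linked sites that were both looped in wild type. Of these, 83.5% had both sites in 1 wild-type network and 63.9% were joined there through 1 intermediate site. The mean count of such loops was 3.13 for the lost and 2.45 for the gained ones, so both stood near the minimum of the lists.

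RAD21 loops gave a second readout of the same site pairs, with other layouts in the 2 genotypes too. The RAD21 lists held 16788 loops in wild type and 10804 in ZNF143KO, so a lower share in the ZNF143KO RAD21 list is not particular to a class of CTCF loops. Of the CTCF loops kept, 65.5% were listed in wild-type RAD21 and 47.8% in ZNF143KO RAD21. Of the CTCF loops lost, 31.7% were in wild-type RAD21 and 16.1% [15.4 to 16.8] were still in ZNF143KO RAD21. Of the CTCF loops gained, 14.3% [13.6 to 15.1] were in wild-type RAD21 and 10.8% [10.2 to 11.5] in ZNF143KO RAD21. The better supported losses were few. Of the 170 lost CTCF loops with a wild-type count of at least 10, 148 (87.1%) were in wild-type RAD21 and 97 (57.1% [49.5 to 64.3]) were still in ZNF143KO RAD21. Of the 291 gained CTCF loops with a count of at least 5, 99 were in wild-type RAD21 and 98 in ZNF143KO RAD21.

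Anchors with other partners were read from the 9777 sites looped in both lists. Of these, 2356 had no partner in common, which is a background of 24.1% of all shared sites, 1558 (15.9%) had identical partners and 5863 (60.0%) kept some and changed others. The number of partners was lower in ZNF143KO at 3953 sites (40.4%), higher at 2171 (22.2%) and equal at 3653 (37.4%). It was at least 2 times lower at 2637 sites, or 27.0% of those compared, and at least 2 times higher at 1362, or 13.9%. Complete change of partners was found almost wholly at sites with few counts. Where the lower of the summed counts in the 2 lists was 2 to 4, 2194 of 5536 sites (39.6%) had no partner in common. At 5 to 9 it was 157 of 2274 (6.90%), at 10 to 19 it was 5 of 1278 (0.391% [0.167 to 0.913]), and at 20 or more it was 0 of 689, with an upper limit of 0.554%.

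**Figure D3:**
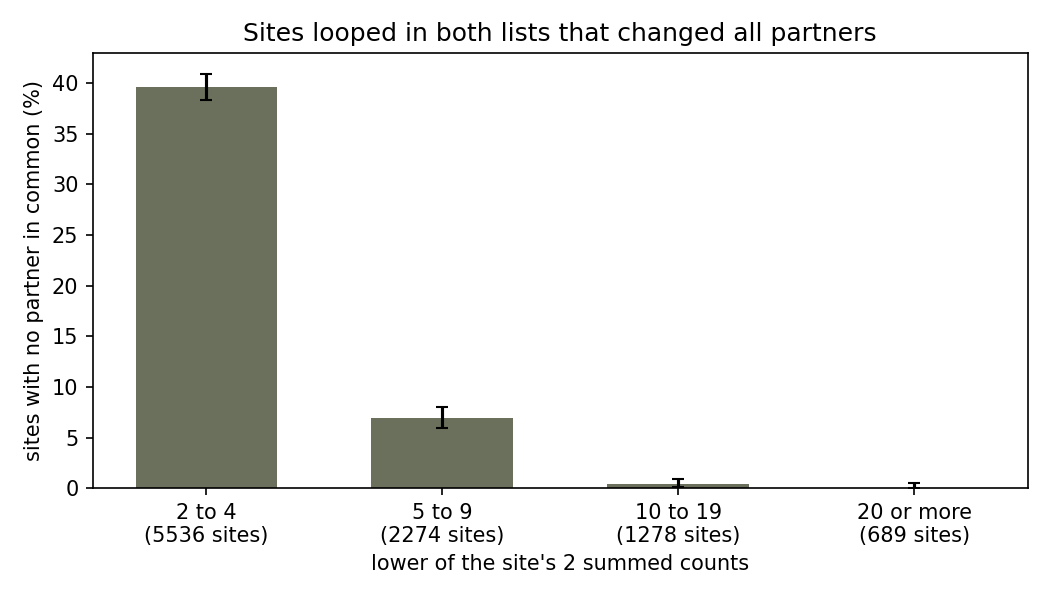
Share of the sites looped in both lists that had no partner in common (%), by the lower of the site's summed loop counts in wild type and ZNF143KO, with 95% Wilson intervals. The share is 39.6% at summed counts of 2 to 4 and 0 of 689 sites at 20 or more.

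The plainest exchanges were at the 2422 sites with exactly 1 partner in each list. The partner was the same at 1326 and another at 1096 (45.3% [43.3 to 47.2]). The new partner lay on the same side at 580 of the 1096 (52.9%) and farther away at 488 (44.5%). The median distance was 165 kb to the old and 130 kb to the new partner, with 213 kb between them. At 750 of these sites (68.4%) the abandoned partner site was still looped elsewhere in ZNF143KO, and at 702 (64.1%) the new partner site had already been looped in wild type.

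Loop sides were compared over sites with all loops on 1 side. Of 4526 sites that were one-sided in both lists, 3787 (83.7% [82.6 to 84.7]) used the same side, which includes every such site with a partner in common, where the side is the same by construction. At the 1096 sites with 1 partner per list that differed between the lists, the side was the same at 52.9% [50.0 to 55.9]. Of 396 wild-type one-sided sites with at least 3 partners in both lists, 221 (55.8% [50.9 to 60.6]) had loops on both sides in ZNF143KO and 175 were one-sided again, 1 of them on the opposite side. Of 1840 such sites with loops on both sides in wild type, 240 (13.0%) were one-sided in ZNF143KO. One-sided sites were rarer at higher numbers of partners: 57.3% of wild-type sites with 2 partners, 29.8% with 3 to 4, 12.3% with 5 to 9 and 2 of 205 with at least 10. In ZNF143KO the same shares were 53.5%, 26.8%, 9.25% and 1 of 107. A fall with partner number arises even where sides are random, and the shares were not compared with such an expectation.

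RAD21 shared only part of these exchanges. Among the 2356 sites with no CTCF partner in common, 764 were looped in both RAD21 lists, and 236 of them (30.9% [27.7 to 34.3]) had no RAD21 partner in common either. For the other shared CTCF sites it was 558 of 4775 (11.7% [10.8 to 12.6]). The 2 groups of sites were not matched for counts or partner number. Of the 2356 sites, 2194 had a lower summed CTCF count of 2 to 4. The same exchange, with an old partner found in wild-type RAD21 alone and a new one in ZNF143KO RAD21 alone, was found at 56 sites. This was 2.38% of the 2356 and 7.33% [5.69 to 9.40] of the 764 that had RAD21 loops in both genotypes and could show it.

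Sites with the most partners all stayed looped, but the share that did rose with partner number. Over all wild-type sites, 9777 of 15628 (62.6%) were also looped in ZNF143KO, with 44.9% at 1 partner and 96.6% at 5 to 9. A site counts as looped if 1 loop is listed, so sites with more partners have more ways to stay looped. Of the 205 wild-type sites with at least 10 partners, called hubs here, each was looped in ZNF143KO, 65 again with at least 10 partners. There were fewer partners at 176 of them, the same number at 11 and more at 18. These sites were chosen for many wild-type partners, so a lower number in the other list is not independent of the choice. From the opposite side, 60 of the 107 hubs of ZNF143KO had more partners than in wild type, 36 fewer and 11 the same number.

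The site with the most wild-type partners, at chr12:52413549-52420199, lies at the start of NR4A1, which encodes an orphan nuclear receptor. It had 22 partners in wild type and 11 in ZNF143KO, 10 of them in common, with a summed count of 476 and 144. The strongest loop ran 60.5 kb to the right, to a site between ATG101 and KRT80, with counts of 165 and 56. The loop to the start of ATG101, an autophagy gene, had counts of 84 and 27, and a loop of 98.3 kb had 89 and 24. All 10 kept loops had fewer counts in ZNF143KO. The 12 lost loops had counts of at most 10 in wild type, and they included each loop of the site longer than the kept one of 305 kb, up to 1518 kb. In all, 5 of them were present in the ZNF143KO RAD21 list, such as the 842 kb loop with RAD21 counts of 2 and 3. A single loop appeared, 28.7 kb to the right, with a count of 8.

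**Figure D4:**
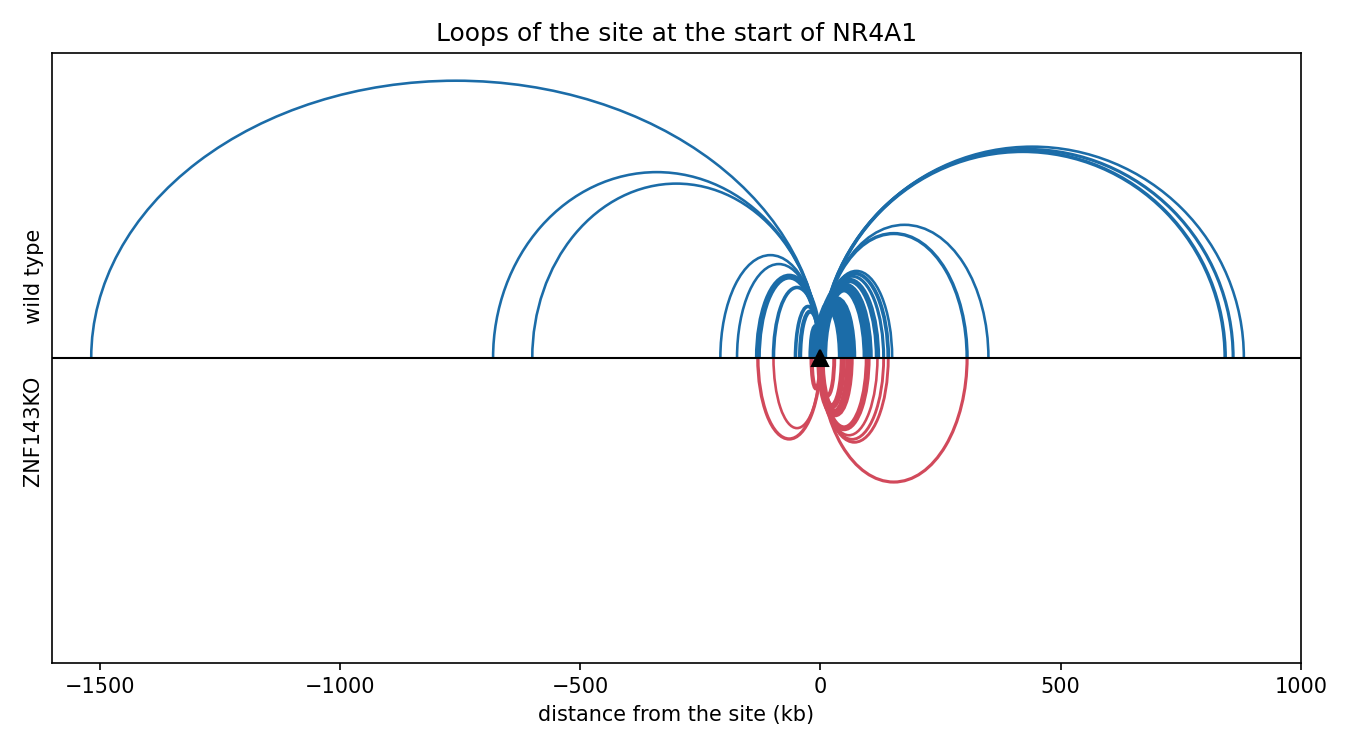
Loops of the site at the start of NR4A1 by distance in kb from the site (triangle), with wild type above and ZNF143KO below the line; arc height grows with the square root of the distance and line width with the count. Wild type has 22 partners reaching 1518 kb, and ZNF143KO has 11 reaching 305 kb.

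The largest negative difference in partner number, ZNF143KO minus wild type, was at chr1:41728006-41734896, between SCMH1, which encodes a Polycomb protein, and FOXO6, which encodes a forkhead transcription factor. The site had 18 partners in wild type and 4 in ZNF143KO, with a summed count of 149 and 27. The loop to the site beside the start of FOXO6, 95.4 kb away, had a count of 14 in wild type and was not listed in ZNF143KO, while RAD21 counts were 12 and 4. The strongest loop, 167 kb long, had counts of 53 and 12. Of the 15 lost loops, 8 were in wild-type RAD21 and 2 in ZNF143KO RAD21, so the CTCF and RAD21 lists both held fewer loops of this site in ZNF143KO.

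The site at chr19:48793317-48795313, between ZNF114 and ODAD1, which encodes a protein of the ciliary dynein docking complex, had 21 partners in wild type and 9 in ZNF143KO. The loop to the start of ZNF114, 21.7 kb away, had a count of 25 in wild type and was not listed in ZNF143KO, though RAD21 counts were 25 and 9. A loop of 328 kb had counts of 34 and 5, with RAD21 counts of 44 and 5. The loop to the start of ODAD1 had 18 and 16, and that to the start of KDELR1, an endoplasmic reticulum retention receptor gene, 6 and 6. The loops of this site were thus not lower by a common factor.

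Within SKAP1, which encodes an adaptor protein of T cells, the site at chr17:46412755-46420123 had 15 partners in wild type and 5 in ZNF143KO, with a summed count of 49 and 12. Its farther partners to the right, from 212 kb on, lay in the HOXB cluster, a row of developmental homeobox genes. Nearer to the site, a loop of 132 kb had a count of 6 and was not listed in ZNF143KO. The loop to HOXB5 had a count of 5 and was not listed in ZNF143KO, with RAD21 counts of 3 and 3. Loops to HOXB6 and HOXB8, each with a count of 2, were not listed either. Loops of 212 and 246 kb into the cluster were listed in both, with counts of 2 and 2 and of 5 and 3.

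A difference nearly as large was found at a site without a ZNF143 anchor. At chr2:65139954-65145631, between SERTAD2 and SLC1A4, partners numbered 15 and 6 and the summed count was 199 and 35. The loop of 125 kb to a site between SLC1A4, an amino acid transporter gene, and CEP68 had counts of 130 and 20 in CTCF and 145 and 26 in RAD21. None of the 16 partner sites but the farthest, 862 kb to the left, held a ZNF143 anchor.

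CEBPB, the transcription factor gene whose promoter is shown above, lies in the hub at chr20:48802364-48810030. It had 19 partners in wild type and 17 in ZNF143KO, 12 of them in common, with a summed count of 321 and 118. Its strongest loop, 271 kb long, had counts of 148 and 58, and the loop to the start of PTPN1, a tyrosine phosphatase gene, had 13 and 4. The number of partners was thus nearly the same while the summed count was 0.368 of the wild-type value. Over the whole lists the total in ZNF143KO was 46220 of 80726.

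Other hubs had more partners in ZNF143KO. The site with the most partners there, at chr1:225661310-225663660 between LBR and ENAH, had 19 partners in wild type and 23 in ZNF143KO, 15 of them in common. The loop with the highest wild-type count ran to the start of SRP9, a signal recognition particle gene, with counts of 87 and 37. A loop of 34.9 kb to the left had 69 and 37, the loop to the start of EPHX1, an epoxide hydrolase gene, 55 and 33, a loop of 501 kb to the right 33 and 12, and that to the start of TMEM63A 31 and 17. The 8 gained loops had counts of at most 8, and 1 of them was in ZNF143KO RAD21.

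The keratin region of chromosome 17 held a hub at chr17:39818359-39824865, between KRT17 and EIF1, with 13 partners in wild type and 20 in ZNF143KO and a summed count of 176 and 202. Keratins form the intermediate filaments of epithelial cells. The loop to the start of EIF1, a translation initiation factor gene, had counts of 25 and 49, and new loops reached KRT16 and KRT17 with 2 each and sites in and beside HAP1 with 5 each. RAD21 counts of the EIF1 loop were 12 and 8, and of the 9 gained loops 1 was in ZNF143KO RAD21. The number of RAD21 partners of the site was 12 in wild type and 14 in ZNF143KO, and their summed count 94 and 49.

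The largest positive difference in partner number was at chr12:57631981-57638329, at the end of STAC3, a muscle calcium channel adaptor gene, with 10 partners in wild type and 20 in ZNF143KO. The strongest loop, to the end of LRP1, had counts of 95 and 63, that into R3HDM2 had 20 and 29, and that to INHBE and GLI1 had 29 and 31. Of the 11 gained loops, those to the start of STAT6, a transcription factor gene of cytokine signalling, and to NEMP1 had a count of 7 each. The STAT6 loop had RAD21 counts of 2 and 3, the only gained loop of this site in ZNF143KO RAD21. A new loop of 606 kb, count 4, joined the site to the start of BAZ2A at chr12:57027755-57031613, itself among the 5 largest such differences with 4 partners in wild type and 12 in ZNF143KO. RAD21 partners numbered 8 in wild type and 5 in ZNF143KO at the STAC3 site, with a summed count of 84 and 26, and 6 and 3 at the BAZ2A site, with 25 and 9. At both sites RAD21 thus differed in the opposite direction to CTCF. The whole RAD21 list was also shorter in ZNF143KO, with 10804 loops beside 16788 in wild type. The part of this in the values of the sites was not tested.

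The site at chr6:44041109-44048199, between VEGFA and MRPL14, had 12 partners in wild type and 19 in ZNF143KO. Its strongest loop, 304 kb to the start of VEGFA, the gene of a growth factor for blood vessels, had counts of 57 and 38 in CTCF and 14 and 13 in RAD21. The site at chr17:43208331-43213674, at the starts of PLCD3 and ACBD4, had 14 and 19 partners, while its strongest loop, 65.8 kb long, had counts of 273 and 123. Between the muscle myosin genes MYH2 and MYH3, the site at chr17:10516910-10522332 had 4 and 12 partners and a summed count of 15 and 36. It held no ZNF143 anchor, and RAD21 listed no loop of the site in wild type and 1 in ZNF143KO. RAD21 partners numbered 7 in wild type and 10 in ZNF143KO at the site left of MRPL14, and 8 and 9 at that of PLCD3. At the other hubs above they were 20 and 16 for NR4A1, 11 and 7 beside ODAD1, 13 and 13 between LBR and ENAH, 17 and 8 for CEBPB, 13 and 4 beside FOXO6, 8 and 2 in SKAP1, and 11 and 5 beside SLC1A4.

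ZNF143 anchors from wild-type ZNF143 HiChIP were more often present at sites with many CTCF partners. They were found at 20.5% of wild-type sites with 1 partner, 33.3% with 2, 49.0% with 3 to 4, 65.9% with 5 to 9 and 84.9% [79.3 to 89.1] with at least 10. In ZNF143KO the same shares were 21.0%, 37.2%, 53.9%, 74.1% and 90.7% [83.7 to 94.8]. At shared sites, at least 2 times fewer partners were found for 26.99% of 4149 sites with a ZNF143 anchor and 26.95% of 5628 sites without, a difference of 0.0399 points [-1.73 to 1.83] over all partner numbers. Among sites with the same number of wild-type partners the share was lower with the anchor: 41.0% beside 54.1% at 2 partners, 34.8% beside 44.2% at 3 to 4, 31.0% beside 50.5% at 5 to 9, and 28.2% [22.0 to 35.3] beside 48.4% [32.0 to 65.2] at 10 or more. With 1 wild-type partner a fall of that size is not possible. No partner in common was found for 16.5% and 29.7%, a difference of 13.3 points, lower with the anchor. Among sites with the same number of wild-type partners the gap was smaller: 41.5% beside 42.2% at 1 partner, 20.0% beside 27.4% at 2, 8.09% beside 15.0% at 3 to 4 and 2.06% beside 5.43% at 5 to 9. Identical partners were also rarer with the anchor over all partner numbers, 9.64% beside 20.6%.

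Because sites with a ZNF143 anchor had more partners, they were also compared within classes of the partners of both lists together. With 7 to 12 such partners, mean partners were 4.91 in wild type and 4.03 in ZNF143KO at 1114 sites with the anchor, and 4.78 and 3.63 at 657 without, ratios of 0.820 and 0.760. With over 12, the ratios were 0.867 at 463 sites and 0.794 at 103. With 2 to 3 partners the ratios were 0.949 and 0.944, and with 4 to 6 they were 0.804 and 0.792. The share of wild-type partners kept was lower with the anchor at 2 to 3 partners, 45.8% beside 47.1%. It was higher with the anchor in the other classes, 43.8% beside 40.4% at 4 to 6, 48.3% beside 43.2% at 7 to 12 and 55.6% beside 50.2% at over 12. The ratio of summed counts was lower with the anchor at 2 to 3 partners (0.696 beside 0.725) and 4 to 6 (0.564 beside 0.582), and higher at 7 to 12 (0.542 beside 0.510) and over 12 (0.529 beside 0.458). The ratio of mean partners was higher with the anchor in each of the 4 classes. Sites with the anchor also had more counts per wild-type loop, 5.64 beside 4.62 at 7 to 12 partners, and the part of the count in this difference was not tested.

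The longest chain of loops with a count of at least 5 had 10 loops in wild type and 8 in ZNF143KO. There were 4237 wild-type and 2003 ZNF143KO loops at that count, and the thinned wild-type list, with 2392 such loops, gave a longest chain of 7. With a minimum count of 3 the longest chains had 16 and 14 loops, and with 2 they had 39 and 36.

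The wild-type chain ran 508 kb along chr12:56349111-56859103, from PMEL, a melanosome gene, past RPS26, ERBB3, MYL6 and SMARCC2 to a site between MIP and SPRYD4. Each of its 11 sites held a ZNF143 anchor. In ZNF143KO, 9 of the 10 links were listed. The strongest, between the starts of SMARCC2, a chromatin remodelling subunit gene, and RNF41, a ubiquitin ligase gene, had counts of 75 and 37, with RAD21 counts of 20 and 4. The link from MYL6, a myosin light chain gene, to SMARCC2 had counts of 37 and 9. Counts were higher in ZNF143KO for the links from ZC3H10 to MYL6, with 6 and 11, and from RNF41 to COQ10A, with 17 and 18.

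The 1 link not listed in ZNF143KO joined the site beside SUOX to the site of RPS26, the ribosomal protein gene whose promoter holds the letters ACTACAATT. Its count was 10 in wild type, and its RAD21 counts were 3 and 2, so the contact was still listed in ZNF143KO RAD21. The RPS26 site, at chr12:56434690-56441992, had 7 partners in wild type and 5 in ZNF143KO, 3 of them in common, and a summed count of 34 and 11. RAD21 listed 2 partners of this site in wild type and 4 in ZNF143KO, with a summed count of 5 and 8. Its loop to the start of ERBB3, a receptor tyrosine kinase gene, had counts of 8 and 3. This site was singled out after its values were seen. The next site of the chain, at the start of ERBB3, had 12 and 8 partners. Farther along the chain, the site of ANKRD52 and COQ10A had more in ZNF143KO, with 4 and 10 partners and a summed count of 50 and 63. Its RAD21 partners numbered 7 and 5, with a summed count of 35 and 13, and the whole RAD21 list was also shorter in ZNF143KO.

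**Figure D5:**
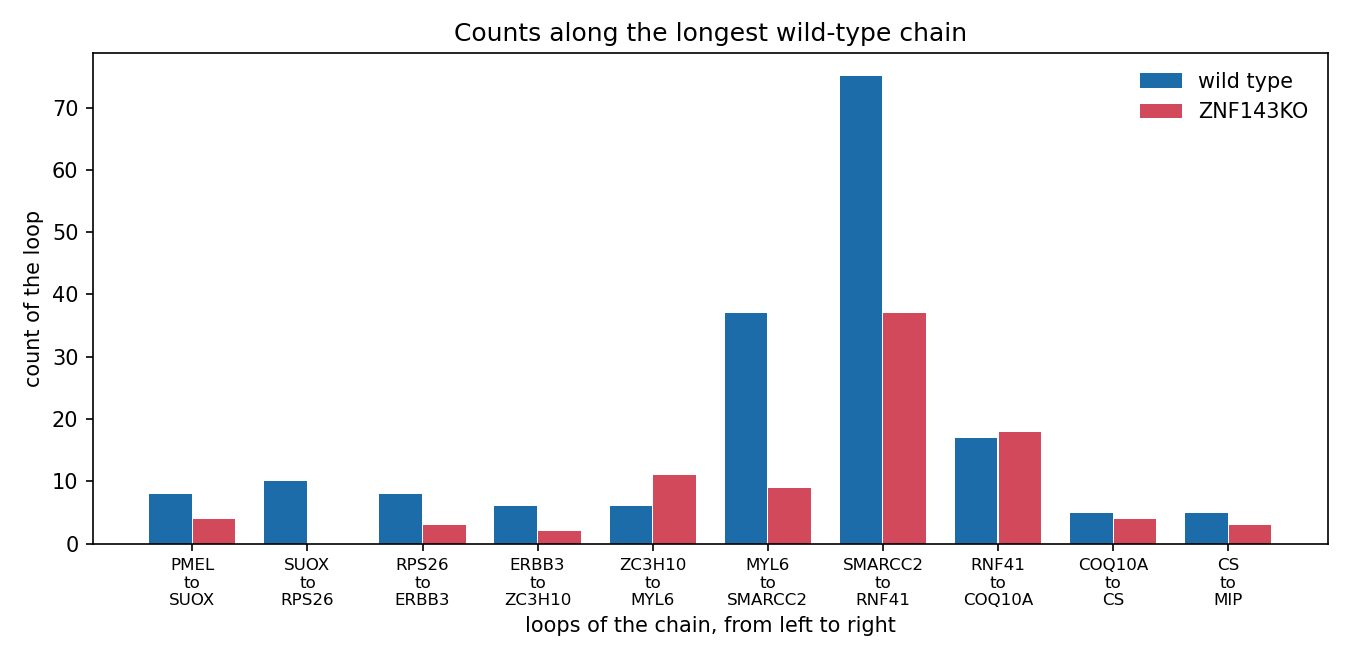
Counts of the 10 loops of the longest wild-type chain, from PMEL to MIP on chromosome 12, in wild type (blue) and ZNF143KO (red); the labels give a gene at or next to each end. The link from SUOX to RPS26 has 10 counts in wild type and none listed in ZNF143KO, and 2 links are higher in ZNF143KO.

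The ZNF143KO chain ran 590 kb along chr6:43690483-44282233, from a site between MRPS18A and VEGFA through the start of VEGFA and the hub left of MRPL14 to the start of AARS2. In wild type, 7 of its 8 links were listed. Its weakest links had a count of 5, and 5 of the 7 shared links had the higher count in ZNF143KO, such as that within TMEM63B with 4 and 9. The link not listed in wild type ran 51.5 kb from the hub to the start of MRPL14, a mitochondrial ribosomal protein gene, with a count of 5. RAD21 listed the first 3 links in both genotypes and none of the other 5 in either.

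The 10 best supported sites with no partner in common had summed counts of 8 to 13 in each list. The site at chr11:134737771-134739446, distal to B3GAT1, had 1 loop of 207 kb with a count of 12 in wild type. In ZNF143KO it had 4 other loops with counts of 2 to 5. RAD21 differed in the opposite direction for the lost loop, with no listed loop in wild type and a count of 6 in ZNF143KO. For 2 of the 4 gained loops RAD21 differed in the same direction as CTCF, with counts of 3 and 2 in ZNF143KO and none listed in wild type. At chr15:79027460-79033938, between the nicotinic receptor gene CHRNB4 and ADAMTS7, 5 wild-type loops with counts of 2 to 3 were not listed in ZNF143KO. A loop of 120 kb into CHRNA3 had a count of 7 there and none in wild type, but its RAD21 counts were 5 and 7. Neither CTCF exchange was therefore found in full in RAD21. The other 8 sites lay between ASB8 and CCDC184, between BMP4 and CDKN3, in SLC2A13, CLSTN3 and ABTB3, and at CYB561D1, ST6GALNAC2 and SIRT4.

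Among the 56 exchanges also seen in RAD21, the 5 with the highest value of the lower of the 2 summed CTCF counts lay in ALPL, at the start of PHLDA1, in HIVEP1, between KCND3 and CTTNBP2NL, and at APOA5. The APOA5 site, chr11:116661539-116663777, belongs to a cluster of apolipoprotein genes. In wild type it looped 124 kb into SIK3 with a count of 2 and 314 kb to beyond the start of SIK3 with a count of 3, the second with a RAD21 count of 2. In ZNF143KO neither loop was listed, and the site looped 43.6 kb to APOA1 with a CTCF count of 5 and a RAD21 count of 4, where wild type listed none in either. These counts stand near the minimum of the lists, and the site was singled out after its values were seen.

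The loops that held the most others closed regions whose inner loops were partly shared. On chromosome 7 the loop that held the most others in wild type, chr7:99575671-100934546, had counts of 8 and 6 and held 68 loops in wild type and 49 in ZNF143KO, 27 of them in common. The outer loops of the next 2 wild-type nests, at chr14:24419949-24907246 and chr17:38471237-39959041, had counts of 2 and were not listed in ZNF143KO. Inside them there were 61 and 53 loops on chromosome 14 and 61 and 69 on chromosome 17. The 3 loops that held the most others in ZNF143KO, on chromosomes 16, 12 and 17, each had a count of 2 and were not listed in wild type, and their regions held 67, 58 and 63 loops in wild type and 62, 59 and 58 in ZNF143KO.

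The largest connected network had 216 loops over 109 sites in wild type, at chr12:53440180-58299983, and 239 loops over 166 sites in ZNF143KO, at chr19:42526417-50832853. In ZNF143KO, 97 of the 109 sites of the first were looped, with 199 loops among them in 2 networks. In wild type, 140 of the 166 sites of the second were looped, with 268 loops among them in 5 networks. The ZNF143KO network on chromosome 19 thus joined sites that formed 5 networks in wild type, although it held fewer loops between those sites.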

How the data were processed

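The deposited lists gave pairs of anchors and, in the last column, a whole-number count per loop, made by the authors and taken as supporting read pairs. HiC-Pro and the build hg19 come from the submitters' processing notes, while the loop caller, its filters and any pooling of runs are not given in the sources used here. Library depth is unknown, since the lists hold only loops with a count of at least 2. Groups were taken from the sample titles. Anchors of the CTCF lists within 5 kb were merged into sites, loops between the same pair of sites were summed, and loops within a site (2 and 3) were left out. A RAD21 loop was matched when both its anchors lay within 5 kb of the same sites. Shares carry Wilson and differences Newcombe intervals at 95%. Wild-type counts were thinned with a fixed seed, keeping 64.3% of counts, until the listed totals were equal, and sites were then merged anew, so differences at equal totals can depart slightly from those of the printed shares. Sites were named by rank: the 5 with the most partners per list, the 5 largest falls and rises, the 10 best supported with no partner in common, the longest chains at a count of at least 5 and the 3 loops per list holding most others. The members, these rules and the gene names were chosen with earlier results of these data known. The alternatives were merging gaps of 0 and 10 kb, a minimum count of 3, equal totals, and classes of count and span. Scripts used Python 3.11.15, numpy 2.4.6, pandas 2.3.3 and matplotlib 3.10.9, and the network counts were tested on simulated data. Gene starts and fixed gene lists were not assigned to sites by computation, since no GRCh37 annotation was used here. The ZNF143 lists of CTCF-AID cells were not used here.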

Additional observations from a re-analysis of the deposited data

How the results depend on the processing

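Of 33 alternative values for the 8 summary results, 18 kept their direction and size, 10 moved and 5 reversed. All 5 reversals came from thinning wild type to an equal listed total: the ratio of mean partners (ZNF143KO over wild type) was 1.02 in place of 0.867, with an interval of 0.999 to 1.04 that includes 1, and the differences, ZNF143KO minus wild type, were 2.04 points for sites with loops on both sides (-4.22 as deposited), 1.70 for nested loops (-6.73), 4.08 for chained loops (-5.42) and 7.10 for networks of at least 10 loops (-12.7). The same thinning gave -3.06 points for end-to-end pairs with a spanning loop (-4.57 as deposited; alternatives for this result were chosen after seeing the data). With a minimum count of 3 the differences were -11.7 points for nested loops, -9.49 for chains and -17.8 for networks, and the kept share of chained minus other loops was 10.4 points (13.1 as deposited). That difference was 6.50 points within classes of count and span. The share of shared sites with no partner in common (24.1%) was 26.6% with overlapping anchors, 22.0% with a gap of 10 kb, 17.8% with a minimum count of 3 and 25.0% at equal totals. Beyond the thinning, the causes of these shifts were not tested. The planned share of loops with a gene start, with its alternatives, was not run. With 1 library per group and an unknown depth, the spread between cultures is not known, and low counts limit every statement on a loop not listed. No paired analysis was possible because each group had 1 library with no replicate number.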
